A study of Mus musculus with 3 samples.

Results

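The leukocyte tetraspanins analyzed here are 7 genes, *Cd9*, *Cd37*, *Cd53*, *Cd63*, *Cd81*, *Cd82* and *Cd151*, chosen by name among the 14148 genes of the count tables. All 7 were present. The cells were CD45+ leukocytes sorted from the muscularis externa, the muscle layer, of the small intestine of wild-type (WT) C57BL/6J mice aged 12 weeks. Single-cell RNA sequencing was performed on 1 naïve library, 1 library taken 24 h after intestinal manipulation and 1 taken 72 h after it, and each library was pooled from several mice. Intestinal manipulation is a surgical handling of the bowel that triggers inflammation of this layer. All groups shared the genotype, strain and age, and the naïve mice had no manipulation. With 1 library per time point, time cannot be told apart from library, so values below are compared without a test. In pooled cells, fewer cells of a type and less RNA per cell cannot be told apart either, except where a value is given per cell of that type.

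Tetraspanins are small proteins that span the membrane repeatedly and gather integrins, Fc and antigen receptors, proteases and each other into membrane domains. CD9, CD63, CD81 and CD82 are broadly expressed, and CD63 resides mainly in late endosomes, lysosomes and secretory granules, from which it reaches the cell surface when a cell degranulates. CD37 and CD53 are largely restricted to leukocytes. CD81 is found on B cells and many other leukocytes, CD82 is a tetraspanin of activated T cells, and CD151 binds laminin-binding integrins. CD9 and CD81 are also the classical tetraspanins that restrain cell fusion of mononuclear phagocytes.

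All members share a Cys-Cys-Gly motif in the large extracellular loop, whose cysteines form the disulfide bonds that fold the loop. The coding sequence around this motif is shown because it defines the family to which all genes below belong, and because the flanking bases differ from member to member. The sequences are from the GENCODE vM21 annotation of GRCm38, in the 5′ to 3′ direction of the coding strand, and capitals mark the 3 codons of Cys-Cys-Gly.
Cd9: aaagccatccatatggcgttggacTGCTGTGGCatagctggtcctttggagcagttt
Cd37: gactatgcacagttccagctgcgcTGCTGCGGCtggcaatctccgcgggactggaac
Cd53: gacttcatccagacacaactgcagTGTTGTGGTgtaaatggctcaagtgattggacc
Cd63: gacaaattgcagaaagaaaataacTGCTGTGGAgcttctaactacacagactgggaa
Cd81: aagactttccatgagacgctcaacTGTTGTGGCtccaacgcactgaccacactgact
Cd82: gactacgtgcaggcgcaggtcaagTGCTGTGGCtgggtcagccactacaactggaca
Cd151: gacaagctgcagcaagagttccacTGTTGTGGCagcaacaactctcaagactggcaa

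The motif lies in coding exon sequence of each gene, in exon 6 of 6 members and in exon 8 of *Cd82*. The capitals of *Cd9* begin at codon 150 and lie at chr6:125462189-125462197 on the minus strand. Those of *Cd37* begin at codon 152, at chr7:45235629-45235637 on the minus strand. Those of *Cd53* begin at codon 144, at chr3:106763278-106763286 on the minus strand. For *Cd63* the motif begins at codon 145 (chr10:128912167-128912175, plus strand), and for *Cd81* at codon 156 (chr7:143066667-143066675, plus strand). For *Cd82* it begins at codon 149 (chr2:93420741-93420749, minus strand), and for *Cd151* at codon 155 (chr7:141470316-141470324, plus strand). The coding sequences ran from 219 codons in *Cd53* to 281 codons in *Cd37*. The libraries were made from the 3′ ends of transcripts, so the counts do not read the motif itself and do not separate isoforms that share a 3′ end.

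The libraries held 652, 2211 and 1239 cells and 1865221, 10542346 and 5246731 unique molecular identifiers (UMIs, counted once per captured transcript) in naïve, 24 h and 72 h samples, respectively. Median depth was 2134.5, 4669 and 3295 UMIs per cell, and no cell had fewer than 500. In each library, 2 cell barcodes also occurred in another library. *Ptprc*, which encodes CD45, the antigen used for sorting, was detected in all named classes, from 193 counts per 1000000 UMIs (CPM) in monocyte/Mφ-like cells at 24 h to 773 CPM in neutrophil-like cells at 72 h. Levels below are CPM of the pooled cells of each group (all UMIs of the gene over all UMIs of these cells), with an exact Poisson 95% interval in brackets that covers counting error only. Clusters were named from marker genes without the members, and groups under 20 cells in a library are not compared. A ratio was called past 2-fold at 2 or more or at 0.5 or less, and only genes that reached 50 CPM in 1 of the groups and 20 UMIs in both together were tested.

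Monocyte/Mφ-like cells numbered 139, 1544 and 573 in naïve, 24 h and 72 h libraries. Their second clustering gave groups that matched the markers of Ly6c+ monocytes (325 cells at 24 h), Ccr2+ intermediate cells (194 cells at 24 h), Fabp5+ Mφs (424 cells at 24 h), Cx3cr1+ Mφs (74 naïve cells), Cd206+ Mφs (250 cells at 72 h) and Timp2+ Mφs (129 cells at 72 h). A further cluster of 44 cells at 24 h and 21 at 72 h expressed *Mmp12* and *Cxcl3*. It matched 3 of 5 markers of an Arg1+ list, *Arg1* not among them, and is called the Mmp12/Cxcl3 cluster. At 24 h, 3 clusters of the second clustering stayed unnamed: Mφ cluster 2 (280 cells, led by *Ltc4s* and *Klk8*, with *Arg1*), Mφ cluster 4 (248 cells of low UMI count) and Mφ cluster 9 (22 cells, led by B cell genes), or 18.1%, 16.1% and 1.42% of the class. T cell-like cells numbered 188, 71 and 136, and B cell-like cells 226, 32 and 42. Dendritic cell (DC)-like cells numbered 30, 125 and 167, and neutrophil-like cells 354 at 24 h and 111 at 72 h. Clusters 8, 14 and 15 of the first clustering remained unnamed.

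*Cd81* differed most between time points in the monocyte/Mφ-like cells. It was at 1089 [999–1185] CPM in naïve cells, 34.0 [30.3–38.1] CPM at 24 h and 219 [203–236] CPM at 72 h, so the naïve level was the highest, the 24 h level the lowest and no intervals overlapped. The ratio of 24 h to naïve was 0.0312 [0.0271–0.0360], that of 72 h to 24 h was 6.43 [5.61–7.39] and that of 72 h to naïve was 0.201 [0.179–0.225]. A UMI of *Cd81* was found in 68.3%, 11.1% and 39.4% of these cells. When each cell was thinned to 500 UMIs, the shares were 33.1%, 1.62% and 8.73%, against 2.13%, 1.41% and 2.21% of T cell-like cells in the same libraries, which were at 4.79%, 5.63% and 12.5% unthinned. At equal depth, therefore, the 24 h share lay at the level of T cell-like cells and the naïve share far above it.

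*Cd81* was the only member past 2-fold in these comparisons, as 1 of 5 tested members in each. The background was 19.8% of 2815 genes for 24 h over naïve, 8.59% of 2701 genes for 72 h over 24 h and 6.44% of 2641 genes for 72 h over naïve. The remaining tested members stayed within 2-fold at 24 h over naïve, with ratios of 1.12 for *Cd9*, 1.21 for *Cd53*, 1.18 for *Cd63* and 0.536 [0.419–0.696] for *Cd37*. The tested members had a median log2 ratio of 0.16, beside 0.23 for all tested genes. At 72 h over 24 h it was -0.03 beside -0.18, and at 72 h over naïve 0.08 beside 0.06. *Cd82* and *Cd151* were under 50 CPM in this class and were not counted.

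**Figure D1:**
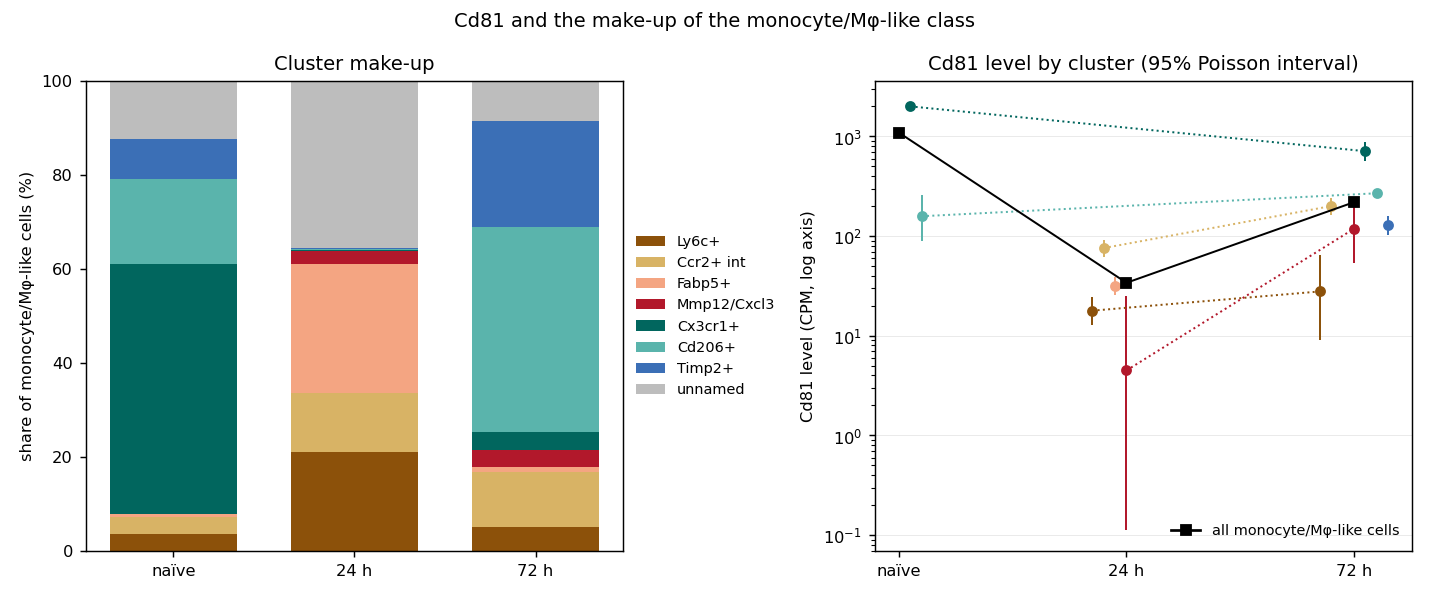
Left, share of monocyte/Mφ-like cells (%) in each macrophage cluster by library, with the unnamed clusters joined. Right, *Cd81* level (CPM, log axis) in the named clusters (colored points) and in all monocyte/Mφ-like cells (black squares), with exact Poisson 95% intervals. The Cx3cr1+ cluster falls from 53.2% of naïve cells to 3.84% at 72 h. The Cx3cr1+ cluster lies on top of the right panel in the naïve library (2004 CPM) and at 72 h (712 CPM), while no named cluster with at least 20 cells exceeds 75.9 CPM at 24 h.

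The class level of *Cd81* moved together with the makeup of the class. The Cx3cr1+ cluster, whose own leading genes included *Cd81*, made up 53.2% of naïve monocyte/Mφ-like cells, 0.0648% at 24 h and 3.84% at 72 h. *Cd81* was held out of the genes that formed the clusters. Its level in Cx3cr1+ Mφs was 2004 [1823–2198] CPM in naïve cells, from 450 UMIs, and 712 [573–874] CPM at 72 h, a naïve over 72 h ratio of 2.82 [2.24–3.57]. Per cell this was 6.08 UMIs in naïve and 4.14 UMIs at 72 h, so the difference was smaller per cell than in CPM. The share of Cx3cr1+ cells with a *Cd81* UMI was 93.2% naïve and 86.4% at 72 h (55.4% and 31.8% at 500 UMIs). The immunoglobulin transcript *Igkc* also led this cluster. Of 6 B cell markers, naïve Cx3cr1+ Mφs held 4, the most abundant at 57.9 CPM (13 UMIs) and the others at 1 or 2 UMIs, and Cx3cr1+ Mφs at 72 h held 1, at 62.6 CPM (8 UMIs), while *Pax5* and *Ebf1* had no UMI in either. Over the whole class the B cell markers summed to 300.2, 35.0 and 86.6 CPM in naïve, 24 h and 72 h libraries, in the same order as *Cd81*. B cell-like cells themselves held *Cd81* at 212 CPM in the naïve library, below the 1089 CPM of the class.

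At 24 h, *Cd81* was low in each named macrophage cluster that could be compared. Levels were 75.9 [62.0–92.1] CPM in Ccr2+ intermediate cells, 31.5 [25.5–38.5] CPM in Fabp5+ Mφs, 17.9 CPM in Ly6c+ monocytes and 4.49 CPM, from 1 UMI, in the Mmp12/Cxcl3 cluster. The Ccr2+ intermediate cells, which carry MHC class II genes, stood 4.25-fold [2.91–6.31] above the Ly6c+ monocytes. The naïve Cx3cr1+ level was 112-fold [80.8–160] that of the 24 h Ly6c+ monocytes. These ratios, and others between pairs of clusters outside the fixed comparisons, were chosen after the levels had been seen.

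At 72 h the levels spread out again, with 269 [242–299] CPM in Cd206+ Mφs, 200.4 [163–244] CPM in Ccr2+ intermediate cells, 129 [102–161] CPM in Timp2+ Mφs and 27.9 CPM in Ly6c+ monocytes. Ccr2+ intermediate cells were 2.64-fold [1.98–3.51] higher at 72 h than at 24 h, so *Cd81* differed between these libraries within this cluster as well as in the class. The part of the mix of clusters in the class difference was not tested. The intervals of Cd206+ and Ccr2+ intermediate cells touched at 72 h and did not separate those 2 clusters. Cx3cr1+ Mφs remained 2.64-fold [2.08–3.34] above Cd206+ Mφs at 72 h.

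The direct contrast of the naïve resident clusters was wider. In naïve cells *Cd81* was 12.7-fold [7.59–22.8] higher in Cx3cr1+ Mφs than in the 25 Cd206+ Mφs, where it was at 158 [88.7–261] CPM. Of 6 tested members, *Cd81* and *Cd82* were higher and *Cd63* was lower, 3 past 2-fold against a background of 23.8% of 1961 genes. *Cd63* was at 227 CPM in Cx3cr1+ and 908 [726–1122] CPM in Cd206+ Mφs, a ratio of 0.2501 [0.173–0.358]. For *Cd82* the ratio of 3.80 [0.909–33.7] rested on few UMIs, and it was 0.338 after thinning to 500 UMIs per cell. Over the tested members the median log2 ratio was 0.35, beside -0.08 for all tested genes.

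Outside the macrophages, *Cd81* also differed between time points in DC-like cells. It was at 180 [115–268] CPM in naïve DCs, 8.14 [3.27–16.8] CPM at 24 h and 99.96 [83.1–119] CPM at 72 h, in the same order as in the monocyte/Mφ-like cells. The 24 h over naïve ratio was 0.0452 [0.0164–0.108] and the 72 h over 24 h ratio 12.3 [5.79–31.2]. Markers of other cells moved with it: monocyte/Mφ markers in DC-like cells summed to 8179, 4594 and 5838 CPM, with 1, 0 and 0 of 15 at zero, T cell markers to 1118, 34.9 and 240.2 CPM, with 0, 2 and 0 of 9 at zero, and natural killer cell markers to 2656, 6.98 and 63.7 CPM, with 4, 3 and 2 of 6 at zero. All 3 lists had the order of *Cd81*, and their part in its level was not tested. In B cell-like cells *Cd81* was at 212 [172–258], 160 [79.9–286] and 180 [107–284] CPM, and all 3 intervals overlapped. In neutrophil-like cells it was at 20.3 CPM at 24 h and 20.9 CPM at 72 h.

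**Figure D2:**
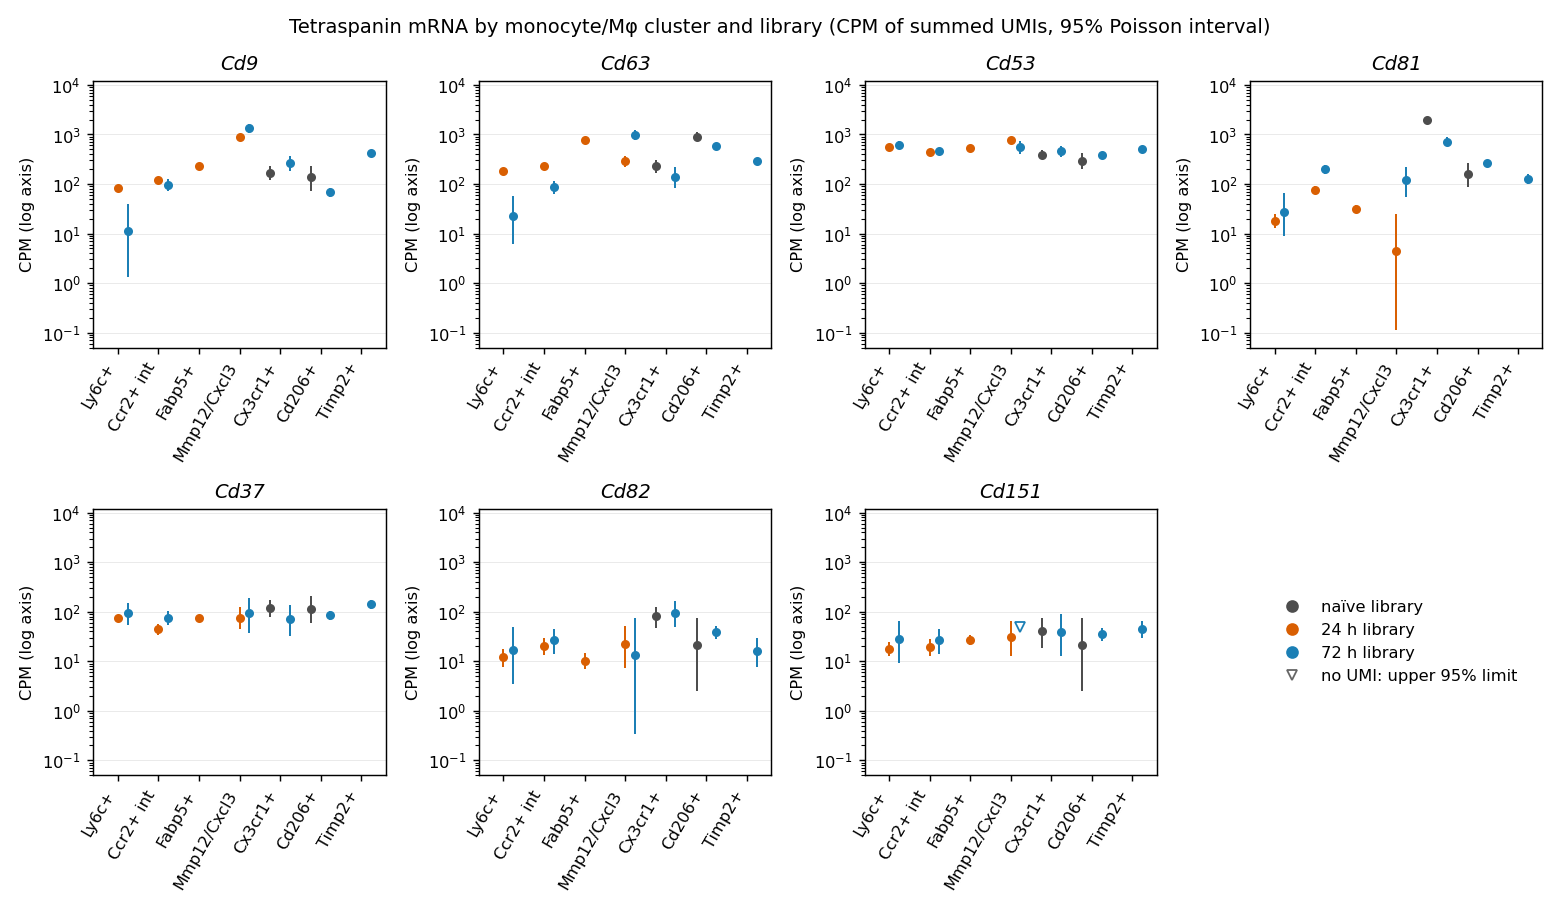
Level of each member (CPM, log axis) in the clusters of monocyte/Mφ-like cells, by library, with exact Poisson 95% intervals for groups of at least 20 cells. *Cd9* peaks in the Mmp12/Cxcl3 cluster (880 CPM at 24 h and 1342 CPM at 72 h), *Cd63* in that cluster at 72 h (974 CPM) and in naïve Cd206+ Mφs (908 CPM), and *Cd81* in naïve Cx3cr1+ Mφs (2004 CPM).

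*Cd63* showed nearly the same class level at all times in monocyte/Mφ-like cells, at 353 [302–409] CPM naïve, 415 [402–429] CPM at 24 h and 387 [366–410] CPM at 72 h. Behind this level the clusters differed widely. At 24 h it was at 763 [732–795] CPM in Fabp5+ Mφs, from 2301 UMIs, 292 [225–372] CPM in the Mmp12/Cxcl3 cluster, 228 CPM in Ccr2+ intermediate cells and 181 [164–200.2] CPM in Ly6c+ monocytes. Fabp5+ Mφs were thus highest and Ly6c+ monocytes lowest among these clusters. Fabp5+ Mφs, led by *Fabp5*, *Gpnmb* and *Spp1*, which are genes of lipid handling and lysosome-rich Mφs, held 5.43 *Cd63* UMIs per cell.

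In the comparison of Fabp5+ Mφs with Ly6c+ monocytes at 24 h, *Cd63* was 4.20-fold [3.78–4.69] and *Cd9* 2.86-fold [2.42–3.39] higher in Fabp5+ Mφs. These were 2 of 4 tested members, against a background of 9.46% of 2718 genes past 2-fold. For the tested members the median log2 ratio was 0.78, beside -0.03 for all tested genes. Both genes are also abundant in platelets, and *Pf4* and *Ppbp*, listed here as platelet markers, were among the leading genes of the Fabp5+ cluster. *Pf4* was at 3187 CPM and *Ppbp* at 134 CPM in Fabp5+ Mφs, against 347 and 4.12 CPM in Ly6c+ monocytes, while the platelet integrin *Itga2b* had no UMI in either. *Pf4* was not particular to Fabp5+ Mφs. At 24 h it was at 1999 CPM in the Mmp12/Cxcl3 cluster, 1872 CPM in Mφ cluster 4, 1698 CPM in Mφ cluster 2 and 209 CPM in Ccr2+ intermediate cells. *Ppbp* was at 0, 75.8, 5.56 and 4.42 CPM in these 4 clusters. Naïve Cd206+ and Cx3cr1+ Mφs held *Pf4* at 1806 and 1385 CPM, with no *Ppbp* UMI. The part of platelet RNA in the 2 ratios was not tested.

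At 72 h, *Cd63* was at 573 [533–616] CPM in Cd206+ Mφs, 289 [248–335] CPM in Timp2+ Mφs, 141 CPM in Cx3cr1+ Mφs, 87.0 CPM in Ccr2+ intermediate cells and 22.3 CPM, from 4 UMIs, in Ly6c+ monocytes. The order ran from the Cd206+ cluster down to the monocytes. Cd206+ Mφs stood 6.59-fold [4.84–9.18] above Ccr2+ intermediate cells. The 21 cells of the Mmp12/Cxcl3 cluster were above all of these at 974 [765–1222] CPM, 3.34-fold [2.36–4.73] their own 24 h level. A UMI of *Cd63* was found in 76.0% of Cd206+ Mφs at 72 h and in 84.4% of Fabp5+ Mφs at 24 h (23.2% and 24.8% at 500 UMIs). In T cell-like cells, which should hold little *Cd63*, the share was 11.3% at 24 h and 0.735% at 72 h (2.82% of 71 cells and 0 of 136 cells at 500 UMIs, the latter allowing up to 2.21%).

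*Cd9* separated the macrophage clusters in another way. Its class level was 170 [136–211] CPM naïve, 190 [182–200] CPM at 24 h and 187 [172–203] CPM at 72 h, with overlapping intervals throughout. The Mmp12/Cxcl3 cluster was at 880 [761–1013] CPM at 24 h and 1342 [1094–1629] CPM at 72 h, 10.8-fold [8.77–13.3] above Ly6c+ monocytes and 3.78-fold [3.21–4.43] above Fabp5+ Mφs at 24 h. These cells were the highest of the macrophage clusters in both libraries. Mφ cluster 2, at 261 [236–289] CPM, and Fabp5+ Mφs, at 233 [216–251] CPM, came next at 24 h, with overlapping intervals. Ly6c+ monocytes were low, at 81.6 CPM at 24 h and 11.1 CPM at 72 h.

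At 72 h *Cd9* was at 417 [367–471] CPM in Timp2+ Mφs and 68.2 [54.9–83.9] CPM in Cd206+ Mφs. In the comparison of Cd206+ with Timp2+ Mφs, *Cd9* was lower, with a ratio of 0.164, and *Cd81* higher, with a ratio of 2.08, and *Cd63* stood at 1.98, just inside 2-fold. These 2 of 5 tested members past 2-fold compare with 17.7% of 2750 genes. The *Cd81* ratio lay close to the limit and was 1.98 at clustering resolution 0.5 and 1.55 after thinning. *Cd9* and *Cd63*, which had moved together between Fabp5+ and Ly6c+ cells, therefore had opposite ratios between Cd206+ and Timp2+ Mφs. The median log2 ratio of the tested members was -0.44, beside -0.15 for all tested genes.

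**Figure D3:**
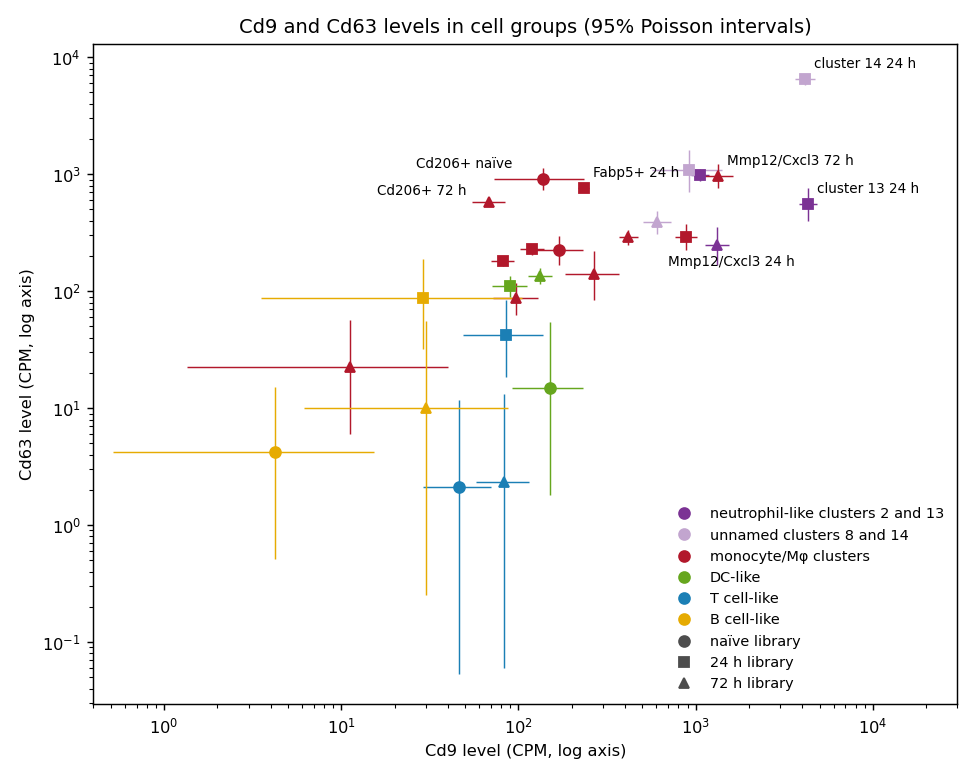
*Cd9* (horizontal) against *Cd63* (vertical) levels, both in CPM on log axes, for each cell group and library of at least 20 cells. Cluster 14 lies at the upper right (4140 and 6492 CPM), the neutrophil-like clusters at high *Cd9*, Fabp5+ Mφs (233 and 763 CPM) and Cd206+ Mφs at high *Cd63*, and T and B cell-like cells at the lower left.

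Neutrophil-like cells exceeded monocyte/Mφ-like cells in CPM at 24 h for all 5 tested members. *Cd82* was tested only because it passed 50 CPM in neutrophil-like cells. *Cd81* and *Cd151* were under 50 CPM in both classes and not tested. They were lower in neutrophil-like cells, with ratios of 0.597 [0.238–1.25] and 0.265 [0.0319–0.970]. *Cd9* was at 1716 [1581–1860] CPM, 9.01-fold [8.19–9.90] above the monocyte/Mφ-like cells. The ratio was 11.9 [8.47–16.5] for *Cd82*, 3.43 [2.72–4.28] for *Cd37*, 2.74 [2.49–3.005] for *Cd53* and 2.17 [1.92–2.43] for *Cd63*. These classes differ in most genes: 59.3% of 2996 tested genes were past 2-fold, 666 higher and 1111 lower in neutrophil-like cells. The median log2 ratio was 1.78 for the tested members and -0.47 for all tested genes. The *Cd63* ratio fell to 1.09 when only cells with 500 genes or more and mitochondrial UMIs of 5% or less were kept, and was 4.07 with cluster 14 counted among the neutrophil-like cells, an alternative added after the data had been seen.

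The order of these classes depended on the scale, because neutrophil-like cells hold little RNA. Their median depth was 859 UMIs at 24 h. Counted per cell, *Cd9* was at 1.67 UMIs in neutrophil-like and 1.11 UMIs in monocyte/Mφ-like cells, and *Cd82* at 0.155 and 0.0784 UMIs, in the same order as in CPM. *Cd53* was at 1.37 against 2.99 UMIs per cell, *Cd63* at 0.876 against 2.42 and *Cd37* at 0.254 against 0.444. For *Cd53*, *Cd63* and *Cd37* the neutrophil-like cells were thus higher in CPM and lower per cell.

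The neutrophil-like class was made of 2 clusters with distinct tetraspanin levels at 24 h. Cluster 2 (306 cells) was led by *Retnlg* and *Cxcr2*, genes of circulating mature neutrophils, and cluster 13 (48 cells) by *Acod1*, *Hcar2* and *Cxcl2*, genes of activated neutrophils. *Cd9* was at 1060 CPM in cluster 2 and 4294 [3821–4808] CPM in cluster 13, a cluster 13 over cluster 2 ratio of 4.05 [3.44–4.78]. *Cd63* went the opposite way in CPM, at 987 and 558 CPM, with a ratio of 0.565, but per cell lay close together, at 0.886 and 0.8125 UMIs. *Cd53* was at 1198 and 2218 [1883–2596] CPM. A *Cd9* UMI was found in 95.8% of cluster 13 cells and 45.1% of cluster 2 cells, or 87.5% and 32.4% at 500 UMIs. In B cell-like cells of the same library it was 3.125%, and 0 of 32 cells at 500 UMIs, which allows a share of up to 9.375%.

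Between 24 h and 72 h, *Cd63* in neutrophil-like cells was at 900.2 [803–1006] and 299 [217–403] CPM, a 72 h over 24 h ratio of 0.333 [0.236–0.459]. Within cluster 2 alone the levels were 987 and 248 CPM, a 24 h over 72 h ratio of 3.99 [2.71–6.07]. *Cd9* in the class was slightly higher at 72 h, at 2082 [1852–2331] CPM, a ratio of 1.21. In CPM the time points therefore differed for *Cd63* and little for *Cd9* in this class. Per cell, *Cd9* was at 1.67 UMIs at 24 h and 2.69 UMIs at 72 h, and *Cd63* at 0.876 and 0.387 UMIs. Mean depth was 973 and 1294 UMIs per cell, so *Cd9* differed more per cell than in CPM.

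Cluster 14 held the highest *Cd63* level of all groups. Its 52 cells all came from the 24 h library and were led by *Pdcd1lg2*, *Gstm1*, *Il1f9* and *Slc7a11*. *Cd63* was at 6492 [5845–7192] CPM, from 367 UMIs or 7.06 UMIs per cell, which was 6.58-fold [5.61–7.72] above cluster 2, 11.6-fold [8.35–16.6] above cluster 13 and 8.51-fold above Fabp5+ Mφs. On the scale of UMIs per cell the Fabp5+ Mφs, at 5.43, came closer. A *Cd63* UMI was present in 88.5% of the cells and in 82.7% at 500 UMIs, against 33.3% and 25.8% in cluster 2 and 39.6% and 18.8% in cluster 13.

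Cluster 14 did not share this excess across the whole family. *Cd9* was at 4140 [3626–4705] CPM, 3.90-fold [3.27–4.65] above cluster 2 but 0.964 of cluster 13. *Cd53* was at 2884 [2458–3362] CPM, 2.41-fold above cluster 2, and *Cd82* at 301 CPM. *Cd37* was at 106 CPM, 0.383 of cluster 2, *Cd81* at 17.7 CPM, and *Cd151* had no UMI. *Cd9*, *Cd53* and *Cd63* were thus above the mature neutrophil cluster and *Cd37* below it.

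The identity of cluster 14 was not settled by its markers. It passed 6 of 8 neutrophil markers, summed to 20415 CPM against 90658 CPM in neutrophil-like cells, with none at zero. Monocyte/Mφ markers summed to 3627 CPM against 4446 CPM in neutrophil-like cells, and T cell and natural killer cell markers had no UMI. Its median depth was 1059.5 UMIs and 517 genes, the median doublet score was 0.0270, and none of its cells was among those of highest doublet score.

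RNA released by other cells can place UMIs in cells that do not express a gene. At 24 h the leading genes of the Fabp5+ Mφs, the largest *Cd63* source among the macrophages, were used as a gauge. T cell-like cells held a median of 3.66% of the Fabp5+ level of these genes, with a highest value of 11.8%, and 5.56% for *Cd63*. In B cell-like cells these values were 3.65%, 13% and 11.4%, and *Cd63* rested on 6 UMIs. The *Cd63* of both classes at 24 h lay above the median and below the highest value, which was that of *Uap1l1* in each. In DC-like cells *Cd63* was at 14.5%, beside a median of 6.14% and a highest value of 25.5%, also that of *Uap1l1*. The part of released RNA in these *Cd63* levels was not tested, and expression in T and B cell-like cells is not read from them. In cluster 2 the median was 8.93% and *Cd63* 129%, and in cluster 14 17.8% and 851%, although *Syngr1* of the same gene group reached 385% in cluster 14.

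Cluster 8 (203 cells at 72 h, 31 at 24 h), led by *Ptgs2*, *Siglecf* and *Mmp9*, passed 7 of 8 neutrophil markers and was left unnamed. *Cd9* was at 917 CPM at 24 h and 608 CPM at 72 h, and *Cd63* at 1092 and 390 CPM. *Cd81* was at 43.7 and 147 CPM, and at 72 h was 8.62-fold [2.19–74.4] higher than in cluster 2, where few *Cd81* UMIs were counted. In these cells at 72 h, eosinophil markers summed to 390 CPM with 3 of 4 at zero, and mast cell markers to 219 CPM with 0 of 5 at zero, whose part in the *Cd81* level was not tested.

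*Cd53*, the pan-leukocyte member, was present in every group and ran from 252 to 2884 CPM over groups of at least 20 cells, the smallest ratio of highest to lowest level among the members. It was at 426, 514 and 449 CPM in naïve, 24 h and 72 h monocyte/Mφ-like cells, at 323, 365.1 and 337 CPM in DC-like cells and at 574, 495 and 449 CPM in B cell-like cells. Neutrophil-like cells were highest of the named classes, at 1405 [1283–1536] CPM at 24 h and 1455 [1264–1666] CPM at 72 h, with overlapping intervals. In T cell-like cells *Cd53* was at 343, 498 and 491 CPM, a 24 h over naïve ratio of 1.45 [1.12–1.88], within 2-fold. Inside the clusters of this class the intervals overlapped across libraries, with 525, 517 and 556 CPM in cluster 9, led by *Thy1*, and 252 CPM naïve and 253 CPM at 72 h in cluster 10, led by *Gzma*. Across the macrophage clusters with at least 20 cells it ran from 296 CPM in naïve Cd206+ Mφs to 759 CPM in the Mmp12/Cxcl3 cluster at 24 h.

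*Cd37*, a regulator of B cell survival and integrin signaling, was highest in B cell-like cells. It was at 1264 [1165–1370] CPM naïve, 1222 [975–1513] CPM at 24 h and 1417 [1194–1671] CPM at 72 h, with overlapping intervals. The 24 h and 72 h ratios over naïve were 0.967 and 1.12. Plasma cell markers in the class summed to 10542, 12512 and 329 CPM in naïve, 24 h and 72 h libraries. Their part in the *Cd37* and *Cd81* levels of the class was not tested. No member of 4 tested was past 2-fold in B cell-like cells at 24 h, where 17.1% of 2455 genes were, nor at 72 h, where 13.3% of 2460 genes were. The median log2 ratio of the tested members was -0.22 at 24 h and -0.04 at 72 h, beside 0.06 and 0.15 for all tested genes. Both counts depended on the clustering: in 4 alternatives a cluster led by the cell division genes *Pclaf*, *Stmn1* and *Top2a* was named B cell-like, and *Cd37* at 72 h over naïve was then 0.461 to 0.483.

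Naïve B cell-like cells stood 3.21-fold [2.72–3.81] above T cell-like cells and 8.90-fold [6.94–11.6] above monocyte/Mφ-like cells for *Cd37*. A UMI was found in 87.6% of naïve B cell-like and 53.2% of T cell-like cells, at median depths of 1728 and 2336.5 UMIs, or 49.1% and 17.0% at 500 UMIs. Cluster 15, whose 42 naïve cells were led by *Mef2b* and *Rgs13*, genes of germinal center B cells, had a lower *Cd37* level of 818 [713–935] CPM, 0.647 [0.551–0.758] of the B cell-like cells. Per cell the order was the opposite, at 5.14 *Cd37* UMIs in cluster 15 and 2.64 in B cell-like cells, because cluster 15 held 6284 UMIs per cell on average against 2089. *Cd81* was at 277 [217–348] CPM in the same cluster, 1.31-fold the B cell-like level, with overlapping intervals, and per cell at 1.74 against 0.442 UMIs.

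In T cell-like cells *Cd37* hardly differed between libraries, at 393, 377 and 380 CPM. Monocyte/Mφ-like cells were at 142, 76.2 and 107 CPM and DC-like cells at 158, 44.2 and 72.5 CPM, both lowest at 24 h, and in DC-like cells the 24 h over naïve ratio was 0.280 [0.160–0.503]. The T cell and natural killer cell markers given above for DC-like cells had the same order, T cell-like cells held more *Cd37* than DC-like cells, and the part of these markers in the *Cd37* ratio was not tested. In the monocyte/Mφ-like class the B cell markers had the order of *Cd37* as well. Mφ cluster 9, led by B cell genes, held 264 CPM at 24 h and Mφ cluster 2 held 98.8 CPM, against at most 76.4 CPM in the named clusters. Without Mφ clusters 9 and 4, left out after the data had been seen, the monocyte/Mφ ratio of 24 h to naïve was 0.720, in place of 0.536, and that of *Cd81* was 0.0318.

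Among the named classes, *Cd82* was highest in T cell-like cells in each library, followed by neutrophil-like cells at 24 h and 72 h. In T cell-like cells it was at 164 [130–205] CPM naïve, 361 [280–457] CPM at 24 h and 384 [328–448] CPM at 72 h, from 78, 68 and 163 UMIs, so both inflamed libraries lay above the naïve library and overlapped each other. The ratio over naïve was 2.20 [1.56–3.08] at 24 h and 2.34 [1.78–3.11] at 72 h. *Cd82* was the 1 member past 2-fold of 4 tested at 24 h, where 15.6% of 3279 genes were past 2-fold, and of 5 tested at 72 h, where 10.8% of 3134 genes were. The median log2 ratio of the tested members was 0.71 at 24 h and 0.52 at 72 h, beside 0.09 and -0.01 for all tested genes. After thinning to 500 UMIs, the 72 h ratio was 1.64.

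The T cell-like class held 2 clusters whose proportions differed between libraries. Cluster 9, led by *Thy1*, *Cxcr6* and *Il7r*, had 59, 65 and 108 cells, and cluster 10, led by *Gzma*, *Trdc* and *Cd8a*, had 129, 6 and 28 cells. In naïve cells *Cd82* was 3.79-fold [2.33–6.29] higher in cluster 9 than in cluster 10, at 323 and 85.1 CPM. Within cluster 9 it was at 323, 391 and 444 CPM, a 72 h over naïve ratio of 1.38 [0.996–1.93], and within cluster 10 the ratio was 1.94 [0.958–3.77]. Both within-cluster ratios were under 2-fold with intervals that included 1. The class ratio of 2.34 [1.78–3.11] lay inside the interval of cluster 10, and its own interval overlapped that of cluster 9. The ratios inside the clusters were thus not separated from that of the class, and the part of the mix of clusters was not tested. Natural killer cell markers in the class summed to 19915, 3532 and 7484 CPM, highest in the naïve library. T cell markers summed to 10481, 5537 and 6010 CPM. The paper lists *Thy1* and *Il7r*, leading genes of cluster 9, as markers of innate lymphoid cells. A list of innate lymphoid cell markers that held *Il7r* summed to 303, 573 and 816 CPM, in the order of *Cd82*. The part of these cells in the *Cd82* levels was not tested.

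Other classes held less *Cd82*. Neutrophil-like cells were at 160 CPM at 24 h and 181 CPM at 72 h, B cell-like cells at 67.8, 58.2 and 89.8 CPM, and monocyte/Mφ-like cells at 42.6, 13.5 and 31.6 CPM. T cell-like cells were 12.2-fold [9.41–15.8] above monocyte/Mφ-like cells at 72 h. A UMI was found in 31.4%, 49.3% and 55.1% of T cell-like cells and in 7.32% of monocyte/Mφ-like cells at 24 h. At 500 UMIs these shares were 8.51%, 21.1%, 11.03% and 0.518%. With another random seed the 72 h share was 19.9%. The order of the 24 h and 72 h T cell-like shares went against their levels, so no order is read from them.

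*Cd151*, the laminin-binding integrin partner, was close to the lower limit of detection. It was at 38.5, 21.9 and 32.6 CPM in monocyte/Mφ-like cells, at most 44.1 CPM in any macrophage cluster with at least 20 cells (Timp2+ Mφs at 72 h), and at 5.81 and 6.96 CPM in neutrophil-like cells. No UMI was counted in naïve DC-like cells, in clusters 8 and 13 at 24 h, in cluster 14 or in naïve cluster 15. The Mmp12/Cxcl3 cluster at 72 h had none either. *Cd151* did not reach 50 CPM in either group of any comparison and was not counted. In monocyte/Mφ-like cells, where most of its UMIs lay, the ratio of 24 h to naïve was 0.568 [0.354–0.964] and that of 72 h to 24 h was 1.49 [1.16–1.90], both within 2-fold.

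**Figure D4:**
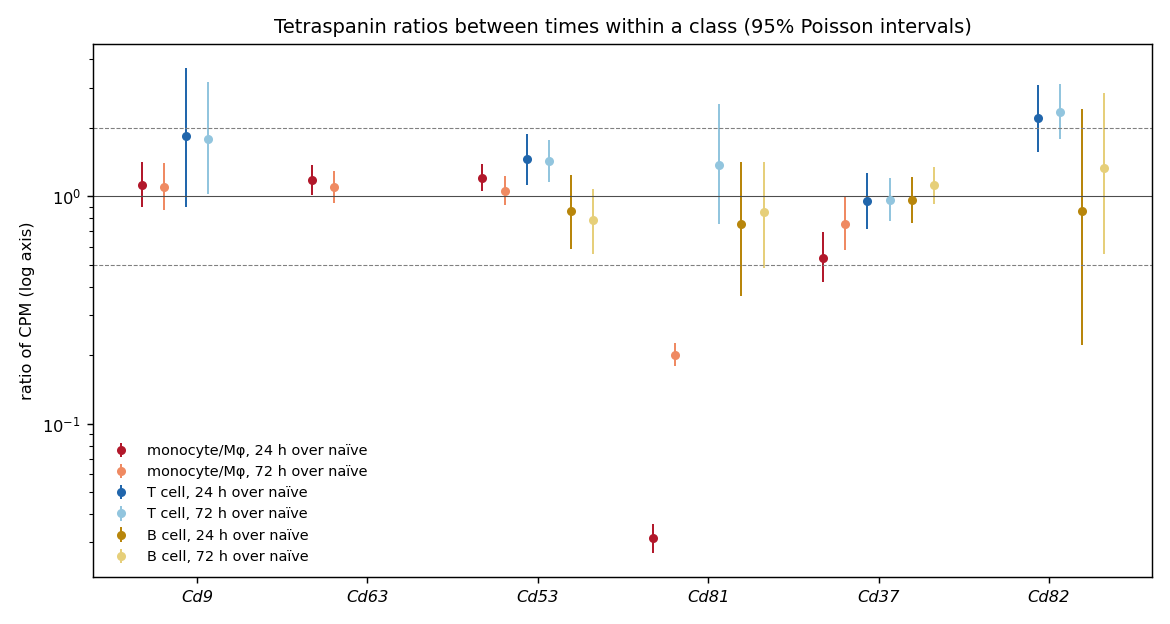
Ratio of CPM between libraries (log axis, dashed lines at 2-fold) for the tested members in the monocyte/Mφ-like class and in both lymphocyte classes, with exact conditional 95% intervals that cover counting error only. *Cd81* in monocyte/Mφ-like cells (0.0312 at 24 h over naïve) and *Cd82* in T cell-like cells (2.20 and 2.34 over naïve) lie outside 2-fold, and *Cd53* lies inside it everywhere.

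The wider family was sparse in these cells. Of 25 other tetraspanins listed, 17 were measured and 7 of them (*Tspan3*, *Tspan5*, *Tspan9*, *Tspan13*, *Tspan14*, *Tspan31* and *Tspan32*) reached 50 CPM in some class. *Tspan32*, a hematopoietic member, was 2.76-fold [1.46–5.24] higher at 24 h and 3.26-fold [1.95–5.63] higher at 72 h than in naïve T cell-like cells, beside *Cd82*. *Tspan9* had ratios of 0.0840 [0.00206–0.505], from 1 UMI at 24 h, and 0.224 [0.0763–0.547]. These were 1 higher and 1 lower of 5 tested at 24 h and of 4 tested at 72 h, beside 15.6% and 10.8% of all tested genes past 2-fold. *Tspan32* reached 50 CPM only in the inflamed libraries and *Tspan9* only in the naïve library, so each was tested only through its higher group. *Tspan13* had a ratio of 10.3 and *Tspan31* of 0.196 in neutrophil-like over monocyte/Mφ-like cells. *Tspan3* was 3.97-fold higher in Fabp5+ Mφs than in Ly6c+ monocytes, together with *Cd63* and *Cd9*, and *Tspan14* had a ratio of 0.264 in Cd206+ over Timp2+ Mφs.

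Of 20 listed partners of tetraspanins, 19 were measured and 17 reached 50 CPM. Those past 2-fold in monocyte/Mφ-like cells at 24 h over naïve included *Ifitm1*, an interferon-induced CD81 partner, at 24.3 [9.47–89.2], *Timp1*, which binds CD63, at 19.7, and *Itga6*, the laminin receptor subunit bound by CD151, at 0.353. At 72 h over 24 h these genes were past 2-fold the opposite way, at 0.412 for *Ifitm1*, 0.245 for *Timp1* and 2.80 for *Itga6*. *Ifitm1* was at 6920 CPM in 24 h neutrophil-like cells, and neutrophil markers in monocyte/Mφ-like cells summed to 349, 1808 and 1295 CPM in naïve, 24 h and 72 h libraries, with 2, 0 and 0 of 8 at zero. Their part in the *Ifitm1* ratios was not tested. *Itga6* thus had the same direction as *Cd81* in both comparisons and *Timp1* and *Ifitm1* the opposite direction, and both comparisons share the 24 h library.

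In T cell-like cells at 24 h, 3 of 10 tested partners were past 2-fold and higher than in naïve cells. Of all tested genes 15.6% were past 2-fold, 276 higher and 237 lower. The 3 partners were the integrin subunit *Itgb1* at 3.24 [1.52–7.04], the sheddase *Adam10* at 2.29 [0.872–5.94] and the lysosomal *Lamp2* at 2.35 [1.05–5.23]. In naïve cells they were at 29.5, 23.1 and 31.6 CPM and reached 50 CPM only at 24 h. They could thus be tested only by being higher at 24 h, and no direction of the partners is read from their count. *Adam10* rested on 10 UMIs at 24 h and 11 in naïve cells, and its interval included 1. *Lamp2* rested on 14 and 15 UMIs. At 72 h, *Itgb1* was at 2.16. In neutrophil-like over monocyte/Mφ-like cells at 24 h, *Ifitm1* was at 35.1 and *Ptprc* at 3.11, and *Lamp1*, which shares lysosomes with CD63, at 0.353. *Lamp1* was therefore lower in the class whose *Cd63* CPM was higher. *Sdcbp*, which encodes the CD63-binding adaptor syntenin, had its highest level, 2353 CPM, in cluster 14.

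The patterns of the members over 29 groups of cells and libraries were compared with those of 6218 genes by Pearson's r of log2(CPM + 10). Groups of a library share its depth and preparation, so r is given as a description only. *Cd63* was most like *Ftl1* (0.902) and *Fth1* (0.9004), the ferritin subunits, and *Cd9* most like *Fth1* (0.880) and *Cxcl2* (0.864). *Cd37* was most like *Hip1r* (0.867) and *Blk* (0.863), *Cd53* most like *Gm20406* (0.904) and *Il1f9* (0.899), and *Cd82* most like *Ubb* (0.822). *Cd81* was most like *Serinc3* (0.769) and *Fcrls* (0.749), the latter a leading gene of the Cd206+ cluster, and *Cd151* had no gene above 0.742 (*Chchd5*).

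Among the members themselves, *Cd9* and *Cd63* were the most alike pair (0.779), followed by *Cd9* and *Cd53* (0.684). *Cd53* and *Cd63* had an r of 0.523, and *Cd37* and *Cd82*, the lymphoid-weighted members, of 0.519. *Cd37* and *Cd63* ran in opposite directions (-0.533), as did *Cd53* and *Cd81* (-0.441).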

How the data were processed

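Per the labels and the study's methods, Cell Ranger 3.0.2 was used by the authors to align reads of 10x 3′ libraries to GRCm38/mm10 and to count UMIs, and cells under 200 genes or above 10% mitochondrial UMIs had been removed. The deposited values are raw UMI counts per gene and cell. The 4102 cells were log-normalized and clustered with Seurat 5.3.0 in R 4.3.3 (2000 variable genes without the members, other tetraspanins and partners; 30 principal components, 20 for monocytes/Mφs; 20 neighbours; resolution 0.8; seed 0), with no correction between libraries. A cluster was named only when at least 3 markers of a list were 2-fold up and in 10% of its cells. This count was required but did not decide a name alone. Clusters 8, 14 and 15 of the first clustering passed 7, 6 and 6 markers of their best-matching list and stayed unnamed. The naming rule was written after the clusters, but not the tetraspanin values, had been seen. The members and all lists were chosen with earlier results of these data known. Named genes are the members, the listed tetraspanins and partners at 50 CPM or more, and the 3 genes most like each member.

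Ratios and intervals were computed in scipy 1.17.1, with pandas 2.3.3 and numpy 2.4.6; doublets, scored by Scrublet in scanpy 1.11.5, were kept (54 cells of highest score). Shares have exact Clopper-Pearson intervals in the underlying tables. Intervals and a floor of 3 counts cover counting error only. On simulated counts for 24 h over naïve monocyte/Mφ-like cells (2577 genes), 95.23% of intervals held the true ratio. These counts were drawn from the Poisson model of the intervals, so the value checks the calculation and not the spread between cells or mice. Alternatives changed the resolution, principal components, variable genes, cell filter, doublets, averaging, depth, background minimum and library total. GENCODE positions were matched by symbol for all 7 members. Some listed genes are not reported here.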

Additional observations from a re-analysis of the deposited data

How the results depend on the processing

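Of 17 ratios of tested members past 2-fold, 16 kept their side of 1 under all alternatives run. The exception was *Cd82* in naïve Cx3cr1+ over Cd206+ Mφs, where the ratio of 3.80 reversed to 0.338 after thinning to 500 UMIs. The number of members past 2-fold in monocyte/Mφ-like cells at 24 h over naïve was 1, against 2 after thinning, 2 with a minimum of 20 CPM and 3 without the 20 genes with most UMIs; at 72 h over 24 h it was 1, against 2 at 20 CPM. In T cell-like cells at 24 h it was 1, against 2 with a mean over cells, 2 at 20 CPM and 2 without the 20 genes; at 72 h it was 1, against 2 without doublets, 2 with a mean over cells and 0 after thinning. In B cell-like cells at 24 h it was 0, against 1 with 15 and 10 principal components, 1 with members among the variable genes, 1 with the stricter cell filter, 1 without doublets and 1 after thinning; at 72 h it was 0, against 3, 2, 2 and 2 in the first 4 of these, in each of which a cluster led by cell division genes, with 34 to 39 cells at 72 h, joined the B cell-like class. In naïve Cx3cr1+ over Cd206+ Mφs it was 3, against 1 after thinning, and in Cd206+ over Timp2+ Mφs 2, against 1 at resolution 0.5 and 1 after thinning. Other counts of members stayed within 1.5 times (104 of 126 values). No paired analysis was possible because there was 1 library per time point. Depth limits *Cd151* and, in naïve Cd206+ Mφs, *Cd82*; groups under 20 cells gave no value in some alternatives.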
